A study of Mus musculus with 7 samples.

Results

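The Myc family and its dimer partners were followed as 10 genes, taken by symbol from the 32285 genes of the feature list: the activators Myc, Mycn and Mycl, their obligate partner Max, the repressors Mxd1, Mxd3, Mxd4, Mxi1 and Mnt, and the Max-like protein Mlx. All 10 were features of every matrix, and 9 reached a mean of at least 5 CPM (UMIs of a gene divided by all UMIs of the pooled cells and scaled to 1e+06) over the 85 pools of at least 20 cells of a cell class in a library; Mycn, with a mean of 0.718 CPM, did not. Fold changes were therefore read for 9 members, beside 10797 genes in all.

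The study profiled single cells of mouse liver in 7 droplet libraries. The labels describe every library as a murine hepatoblastoma model and give no groups, so values are set side by side and no test between libraries was made. The study names NEJ634, NEJ687, NEJ709 and NEJ723 as ABC-Myc tumors and NEJ638, NEJ654 and NEJ677 as control livers. In ABC-Myc mice, on C57BL/6J, Cre driven by albumin regulatory DNA removes a floxed stop cassette ahead of a human c-MYC transgene under the CAG promoter, and each mouse carries Cre and transgene on 1 allele (Alb-Cre+/wt, CAG-MYC+/wt). The controls are littermates that lack Cre, the transgene or both. Both the transgene and its Cre act through the hepatocyte lineage, while blood, endothelial and stromal cells of the same livers carry no active transgene by design. Ages are not given in the labels used here. Human MYC is not a feature of the mouse gene list, so the transgene was not measured as such, and whether its reads were assigned in part to mouse Myc was not tested. No label says whether libraries came from separate litters, and the intervals below (exact Poisson, 95%, on summed UMIs) cover counting error only.

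MYC proteins bind DNA only as dimers with MAX, through a basic helix-loop-helix leucine zipper domain that recognises the E-box. MXD proteins, MXI1 and MNT compete for MAX and, through SIN3 and histone deacetylases, lower transcription at the same sites. MLX pairs with a subset of the MXD proteins, with MNT, and with the glucose-responsive factors encoded by Mlxip and Mlxipl. In liver, MYC is known as a driver of growth and ribosome production in regenerating and malignant hepatocytes, while MXD proteins are known to rise as cells leave the cell cycle.

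Of the cells called, 73111 were analysed after removal of likely doublets, 6716 to 17000 per library with 18026406 to 77985696 UMIs in sum, and the median cell held 2104 to 4598 UMIs. Marker genes named 41911 cells in 15 classes ("hepatocyte-like" and so on), and 31200 cells stayed unnamed. NEJ709 stands apart: 93.7% of its cells were unnamed, its unnamed cells had an estimated ambient share of 87.6%, and its description in the labels names NEJ634. The pair shared 68 called barcodes, against 27 to 59 for NEJ634 with the others and 10 to 178 for any pair of libraries. This count does not settle the label. In NEJ634, 40.6% of cells were unnamed, with an ambient share of 92.8%. In NEJ638, 2048 of the 2203 endothelial-like cells formed cluster 35, which held 26 and 22 cells of NEJ654 and NEJ677. Cluster 35 had no endothelial marker among its top 10 genes by fold, and a cell type cannot be told apart from that library. Clusters 0, 26 and 36, named hepatocyte-like, and cluster 15, named erythroid-like, also had no marker of their class among their top 10 genes, and cluster 30, named B-like, had more plasma cell than B markers there (3 against 2).

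The E-box CACGTG, which reads the same on both strands, was looked up in the RefSeq promoters (GRCm38.p6, 300 bases around each start, most of them upstream), because MYC and MXD dimers with MAX recognise it. Entries were found for 9 members, 11 entries in all, and none for Myc. The letters were present in 4 of the 11 entries, those of Max, Mlx, Mnt and Mxd4, and in 2349 of all 32851 promoters, 7.15%. In Max they began 3 bases upstream of the start, in Mlx 40, in Mnt 123 and in Mxd4 219. The sequences of Max, the partner shared by all, of Mxd4, whose level differed most between stromal and erythroid cells, and of Mxd1, the leading repressor of neutrophils below, are shown 5′ to 3′ on the gene's strand, with CACGTG in capitals. They lie at chr12:76962199-76962498, chr5:34187661-34187960 and chr6:86669110-86669409, each on the minus strand.
Max: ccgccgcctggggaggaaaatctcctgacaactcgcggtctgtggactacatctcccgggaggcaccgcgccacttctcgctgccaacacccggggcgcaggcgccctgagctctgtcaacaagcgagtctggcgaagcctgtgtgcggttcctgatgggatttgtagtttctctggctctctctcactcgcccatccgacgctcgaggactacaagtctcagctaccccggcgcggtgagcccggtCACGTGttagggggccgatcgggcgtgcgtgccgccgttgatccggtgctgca
Mxd4: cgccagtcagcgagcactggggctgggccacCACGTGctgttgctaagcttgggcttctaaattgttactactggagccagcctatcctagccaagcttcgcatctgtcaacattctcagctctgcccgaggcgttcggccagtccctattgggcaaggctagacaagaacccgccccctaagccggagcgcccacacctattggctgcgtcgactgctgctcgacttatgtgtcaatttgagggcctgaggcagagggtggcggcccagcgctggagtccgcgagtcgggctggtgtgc
Mxd1: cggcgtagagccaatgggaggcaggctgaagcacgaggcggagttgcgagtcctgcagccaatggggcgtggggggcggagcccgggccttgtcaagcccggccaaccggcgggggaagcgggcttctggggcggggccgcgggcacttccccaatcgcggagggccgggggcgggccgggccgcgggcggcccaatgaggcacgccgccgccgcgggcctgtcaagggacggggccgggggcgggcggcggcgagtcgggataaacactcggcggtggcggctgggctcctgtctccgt
A match is a description of these letters, not a bound site, and the window of Mxd1 holds no CACGTG.

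In the GENCODE annotation of GRCm38, Myc spans chr15:61985391-61990374, Max chr12:76937269-76962201, Mxd1 chr6:86647042-86669161, Mxd3 chr13:55325168-55329823, Mxd4 chr5:34173883-34187720 and Mycl chr4:122995652-123002485. The build behind the counts is not given in the sources used here. Mxd3, Mxd4, Mxi1 and Mlx each overlap a counted gene on the opposite strand (Prelid1 for Mxd3, Psmc3ip for Mlx), and whether the counting used strand is not stated, so reads of these pairs may not be told apart.

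Over all analysed cells of a library, Myc stood at 60.8 CPM in NEJ634, 22.5 in NEJ687, 15.7 in NEJ709 and 26.2 in NEJ723. In NEJ638, NEJ654 and NEJ677 it stood at 30.6, 19.7 and 21.4 CPM. NEJ634 was thus the highest, and NEJ687, NEJ709 and NEJ723 lay on both sides of NEJ654 and NEJ677. In NEJ687 and NEJ709 the interval of the cells overlapped that of the ambient profile. Over cells of named classes only, a sum added after seeing the data, Myc was 62.9, 24.5, 44.7 and 30.7 CPM in NEJ634, NEJ687, NEJ709 and NEJ723. In NEJ638, NEJ654 and NEJ677 it was then 35.3, 23.4 and 27.8 CPM. NEJ634 stayed highest, while NEJ709 was no longer lowest, so the order of the other libraries changed with the processing. Myc supplied 83.6 to 97.2% of the UMIs of Myc, Mycn and Mycl in each library. Mycn was near the limit of detection, with 220 UMIs over all cells, and the sums in NEJ634, NEJ687, NEJ709, NEJ723, NEJ654 and NEJ677 were 0.433 to 0.743 CPM, against 2.94 in NEJ638. Mycl had 398 UMIs and stood at 0.580 to 3.26 CPM. Max, the common partner, had the narrowest range of the 10 relative to its level, from 29.8 CPM in NEJ723 to 44.8 in NEJ638.

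Among the repressors, Mxd1 was at 154, 172, 181 and 132 CPM in NEJ634, NEJ687, NEJ709 and NEJ723, and at 118, 62.3 and 58.5 CPM in NEJ638, NEJ654 and NEJ677. Mxd4 was at 42.4, 19.3, 27.2 and 25.2 CPM in the first set and at 121, 146 and 158 CPM in the second. Mxd1 was thus the larger part of the repressor UMIs in NEJ634, NEJ687, NEJ709 and NEJ723 (58.3 to 67.3%), and Mxd4 in NEJ654 and NEJ677 (58.5 and 60.8%), while in NEJ638 the shares were 39.0 and 39.9%. With endothelial-like cells left out, NEJ638 had 57.4% Mxd1 and 22.3% Mxd4, with Mxd1 at 154 CPM against 132 in NEJ723, and in NEJ654 and NEJ677 Mxd1 was 34.3% in each, still below Mxd4. The order of the shares in NEJ638 thus depended on these cells. Mxi1 ranged from 21.5 to 47.9 CPM, Mnt from 9.52 to 19, Mlx from 9.15 to 24.1 and Mxd3 from 2.27 to 11.6. The cell makeup differed as well: endothelial-like cells were 32.8, 31.8 and 25.2% of NEJ638, NEJ654 and NEJ677 and 0.0693 to 0.953% of the other 4. The ambient profile of NEJ634 held Mxd1 at 195 CPM, above its cells, and those of NEJ687, NEJ709 and NEJ723 held it at 102, 132 and 46.4 CPM, against 20.5 to 26.2 in NEJ638, NEJ654 and NEJ677. Over cells of named classes only, a sum added after seeing the data, Mxd1 was 142, 188, 286 and 153 CPM in NEJ634, NEJ687, NEJ709 and NEJ723 and 144, 74.1 and 78.3 in NEJ638, NEJ654 and NEJ677, so that NEJ638 was no longer below NEJ634. Under the 99th percentile rule of cell calling alone Mxd1 in NEJ723 was 53.5 CPM, below the 77.8 of NEJ638, and with the ambient share subtracted it was 0 in NEJ634. The order of libraries in the Mxd1 sums thus changed with the processing. Mxd4 stayed at 122 CPM or more in NEJ638, NEJ654 and NEJ677 and at 42.1 or less in the other 4 under both of these alternatives. A sum over a library cannot tell a change in cells from a change within them, and the values by class follow.

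**Figure D1:**
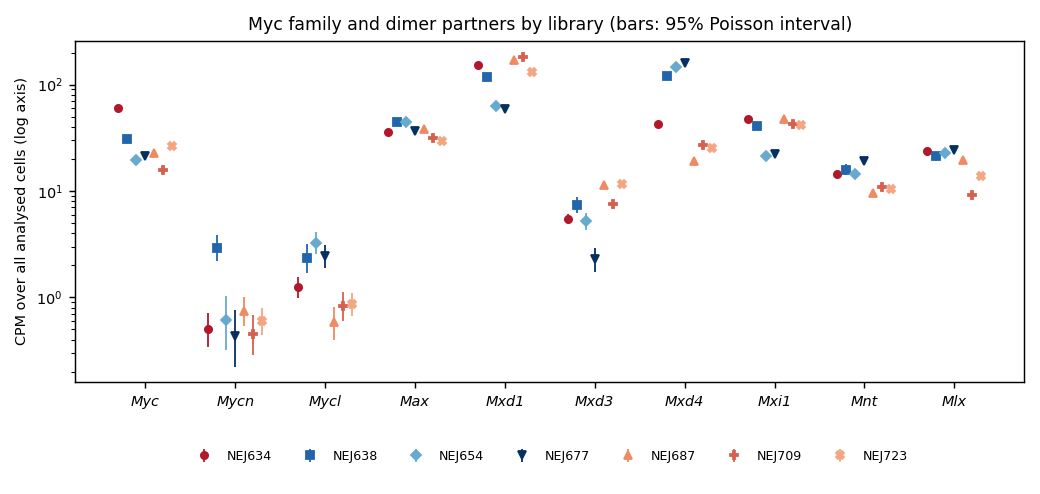
Level of each of the 10 members over all analysed cells of each library (CPM, log axis), with exact 95% Poisson intervals. Mxd4 sits at 121 to 158 CPM in NEJ638, NEJ654 and NEJ677 and at 19.3 to 42.4 in the other 4 libraries, while Max stays between 29.8 and 44.8 in all 7.

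A class was set against the median of the other classes of its own library, as log2 of (CPM + 5) over (CPM + 5), and a gene was called when it was at least 2-fold higher, or lower, in every library with the class. Classes come from clustering on variable genes, with the members and the cofactor, target and G2/M genes used below left out. These contrasts are descriptions and have no test. Of the 15 classes, 6 had a member called. The other 9 had none, while 1.79 to 7.63% of all genes were called higher and 0.0278 to 5.33% lower in them. Along the order of class medians, neighbours overlapped in range for all 14 neighbouring pairs of Myc, Mycn, Mycl, Max, Mxd3, Mxi1, Mnt and Mlx, and for 13 of 14 pairs of Mxd1 and of Mxd4.

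**Figure D2:**
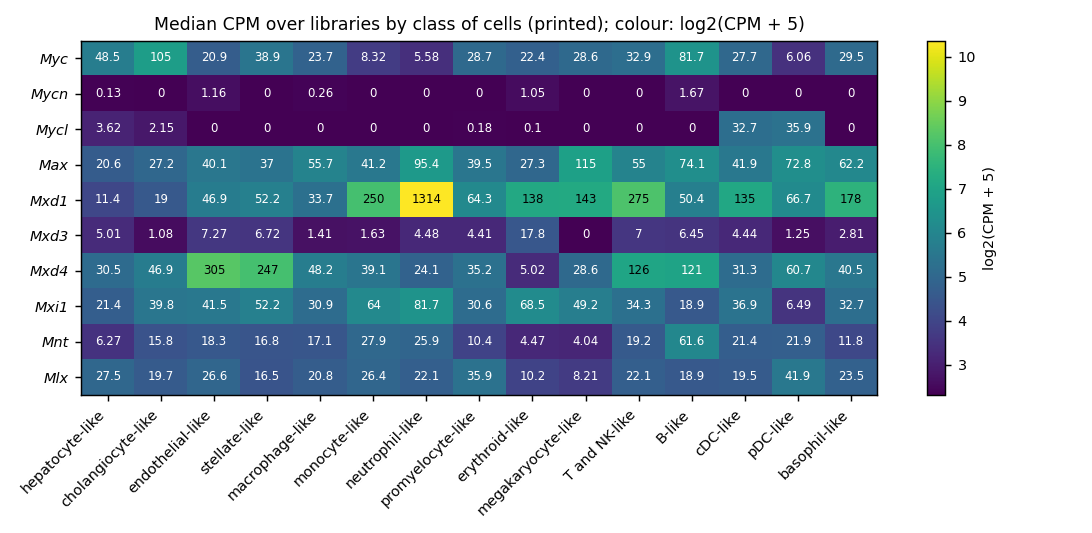
Median level over libraries (CPM) of each member in each marker-named class, from pools of at least 20 cells. Mxd1 peaks in neutrophil-like cells (1314), Mxd4 in endothelial-like cells (305) and Mycl in the plasmacytoid dendritic class (35.9).

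By class median Myc was highest in cholangiocyte-like cells and in the class named B-like, where it lay mainly in cluster 30, and lowest in neutrophil-like cells. Classes are ordered over different sets of libraries, and the order did not hold within each: in NEJ677 Myc was 112.9 CPM in B-like and 45.5 in cholangiocyte-like cells. Over the libraries with a pool, the order of its medians was cholangiocyte-like 105 CPM, B-like 81.7, hepatocyte-like 48.5, stellate-like 38.9, T/NK-like 32.9, basophil-like 29.5, promyelocyte-like 28.7, megakaryocyte-like 28.6, conventional dendritic (cDC-like) 27.7, macrophage-like 23.7, erythroid-like 22.4, endothelial-like 20.9, monocyte-like 8.32, plasmacytoid dendritic (pDC-like) 6.06 and neutrophil-like 5.58.

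In cholangiocyte-like cells, named from markers of bile duct lining such as Epcam and Krt19, Myc was 119.7 CPM in NEJ634, 105.2 in NEJ687, 220.6 in NEJ709, 52.5 in NEJ723 and 45.5 in NEJ677, where the pool held 24 cells. The median is the NEJ687 pool, with 16 Myc UMIs in 7 of 115 cells, and 14 of the 80 pools of other classes reached the lowest of these values. That NEJ687 pool held Epcam at 46.0 CPM, near the 41.7 of its T/NK-like and the 40.3 of its B-like pool, and Krt19 at 6.58 CPM, at a median depth of 735 UMIs, so its markers barely set it apart. The other 4 pools held Epcam at 193 to 994 and Krt19 at 62.9 to 319 CPM. It was called higher in this class, with a median log2 difference of 1.57 (1.25 to 3.18), a 2.96-fold difference, where 5.14% of all genes were called, and the call was kept without NEJ687 (1.52). Myc was the only member called there. The pools of NEJ634, NEJ687, NEJ709 and NEJ723 also held Afp, the fetal albumin-like protein of hepatoblastoma, at 895 to 6065 CPM, and Cldn6, an oncofetal tight junction gene, at 6.58 to 133 CPM, while that of NEJ677 held Afp at 3.79 and Cldn6 at 83.5 CPM. Afp thus set the NEJ677 pool apart and Cldn6 did not. The summed dissociation stress genes were 5286, 3381, 6330 and 2558 CPM in NEJ634, NEJ687, NEJ709 and NEJ723 and 5229 in NEJ677, and their part in the Myc levels was not tested. Without the ambient test of cell calling (99th percentile rule alone) Myc was no longer called here, with a median log2 difference of 1.70, and with each library clustered on its own the class gave no value.

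By design the transgene is switched on in the hepatocyte lineage, and which of the classes carry it in active form was not tested. The cholangiocyte-like pools of NEJ634, NEJ687, NEJ709 and NEJ723 also held Afp, as given above. The study, too, lists Epcam and Krt19 as raised in a cluster that it takes as possible tumor cells. Hepatocyte-like cells were named from hepatocyte markers. Their Myc level was 89.7 CPM in NEJ634 (85.9 to 93.7, 5079 cells), 87.5 in NEJ709 (65.6 to 114.5, 37 cells) and 52.5 in NEJ687 (45.9 to 59.8, 225 cells). It was 44.4 CPM in NEJ638 (36.7 to 53.3, 317 cells), 5.90 in NEJ654 (2.70 to 11.2, 337 cells) and 4.21 in NEJ677 (1.37 to 9.83, 150 cells). The counting intervals of NEJ638 and NEJ687 thus overlapped, and the intervals of NEJ654 and NEJ677 lay below all the others. NEJ723 had under 20 such cells. Cells with at least 1 Myc UMI were 26.0, 27 and 42.7% in NEJ634, NEJ709 and NEJ687, 19.9% in NEJ638, and 2.67 and 3.33% in NEJ654 and NEJ677, at median depths of 2958, 5096, 16224, 8717, 2109 and 6248 UMIs.

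Different clusters hold these cells. Cluster 0 held nearly all hepatocyte-like cells of NEJ634, NEJ687 and NEJ709, and cluster 36 those of NEJ638, NEJ654 and NEJ677. The 109 cells of NEJ634 in cluster 36 had Myc at 91.4 CPM (69.4 to 118.1), against 89.1 in its cluster 0. Afp was 2391, 1577 and 1593 CPM in the pools of NEJ634, NEJ709 and NEJ687, and 9.19, 1.97 and 4.21 in those of NEJ638, NEJ654 and NEJ677. Cyp2e1, a cytochrome of mature pericentral hepatocytes, was 11.3 to 33.0 CPM in the first set and 811 to 2032 in the second. Igf2 split as Afp did, at 2398 to 2987 and 0.766 to 3.37 CPM. Gpc3 did not: it was 3.25, 9.91 and 2.53 CPM in NEJ634, NEJ709 and NEJ687 and 20.7, 0 and 5.05 in NEJ638, NEJ654 and NEJ677. NEJ638 also differed from NEJ654 and NEJ677 in H19 (243 against 7.87 and 3.37 CPM) and Alb (41206 against 69638 and 67616). In the first set H19 was 5379 to 8955 and Alb 3177 to 4376 CPM.

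Stress genes and ambient RNA also differed between these pools. The study describes dissociation with collagenase for the tumors and gives no separate procedure for the control livers. The summed level of 10 dissociation stress genes was 2692, 2728 and 1850 CPM in NEJ634, NEJ709 and NEJ687, then 1930, 916 and 531 in NEJ638, NEJ654 and NEJ677. The Myc levels above ran in nearly the same order, with only NEJ634 and NEJ709, and NEJ687 and NEJ638, swapped. The Myc intervals overlapped within both pairs. The ambient share was estimated at 28.7% in NEJ634, 11.3% in NEJ709 and 0.913% in NEJ687. In NEJ638, NEJ654 and NEJ677 it was 17.4, 7.26 and 7.76%. Myc in the ambient profile of NEJ634 was 38.1 CPM, against 89.7 in the cells. The part of stress and of ambient RNA in the Myc levels was not tested.

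Set against other classes, hepatocyte-like Myc was higher in 4 of 6 libraries, with a median log2 difference of 0.63 that ran from -1.56 in NEJ677 to 1.89 in NEJ709. No member was called higher or lower in this class, where 7.63% of all genes were called higher and 4.26% lower. Mxd1 had the lowest member value, with a median log2 difference of -2.52. Its hepatocyte-like level was 63.5 CPM in NEJ634 and 4.21 to 18.2 in the other 5 libraries, and the NEJ634 pool also held the neutrophil granule gene Camp at 876 CPM. Without NEJ634 Mxd1 was called lower in hepatocyte-like and in cholangiocyte-like cells. With NEJ634 kept, it was called lower in hepatocyte-like cells under the percentile rule alone, with the ambient share subtracted, with haemoglobin and mitochondrial UMIs left out of the total, at Leiden resolution 2 and under a 1.5-fold limit.

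B-like cells held Myc at 24.8 CPM in NEJ723 to 112.9 in NEJ677, above the median of other classes in all 7 libraries but not 2-fold in each. The class is made of cluster 29, led by the pre-B genes Vpreb3, Igll1 and Rag1, and cluster 30, whose leading markers are more of plasma than of B cells, so the clusters are given by number. In cluster 30 Myc was 70.6, 119.0, 79.4, 151.9 and 47.3 CPM in NEJ634, NEJ638, NEJ687, NEJ709 and NEJ723. In cluster 29 of the same libraries it was 0 (upper limit of the interval 37.7), 27.3, 7.56, 0 (upper limit 34.3) and 17.3 CPM. The difference was over 2-fold in all 5, with a median log2 value of 2.75 (1.23 to 4.97), where 0.982% of all genes were called. This pair of clusters was chosen after its values were seen, and cluster 29 held 0 to 22 Myc UMIs per library.

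Neutrophil-like cells were at the other end. Myc was 3.18 CPM in NEJ677, 3.40 in NEJ654, 5.26 in NEJ687, 5.58 in NEJ723, 8.06 in NEJ709, 13 in NEJ634 and 13.4 in NEJ638. The values of NEJ677 and NEJ654 rest on 1 Myc UMI each and that of NEJ638 on 6. Myc was called lower in this class, with a median log2 difference of -1.26 (-1.79 to -1.07), where 5.94% of all genes were called. Under 5 of the alternatives, among them doublets kept (-1.30) and cells weighted equally (-1.14), at least 1 library fell short of 2-fold.

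Mycn, the family member of embryonic and neuroendocrine tissues, had 66 of its 220 UMIs in erythroid-like, 55 in endothelial-like and 14 in B-like cells, and it was at 0 in 54 of the 85 pools. These classes were 8.96, 8.98 and 4.41% of all cells. Of the 66 UMIs, 27 lay in NEJ723 and 31 in NEJ687, where erythroid-like cells were 24.5 and 37.0% of cells. Of the 53 Mycn UMIs of NEJ638, 39 lay in endothelial-like cells (73.6%, interval 59.7 to 84.7%), which were 32.8% of its cells, and 37 of these 39 lay in cluster 35, which had no endothelial marker among its top 10 genes. Within the erythroid series, cluster 14 held 3.15 CPM by the median over libraries and clusters 15 and 16 held 0.

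Mycl is known for its part in dendritic cells. Of its UMIs, 182 of 398 (45.7%) lay in dendritic cells, which were 1.78% of all cells. By library the share was 9.52% in NEJ709, 15.6% in NEJ634, 38.1% in NEJ638, 53.1% in NEJ687, 53.7% in NEJ723, 66.2% in NEJ677 and 74.3% in NEJ654. In plasmacytoid dendritic cells it was 20.04 CPM in NEJ634, 8.70 in NEJ638, 76.3 in NEJ654, 47.1 in NEJ677, 25.0 in NEJ687 and 46.9 in NEJ723. It was called higher in this class, with a median log2 difference of 2.93 (1.36 to 3.92), a 7.64-fold difference, where 3.38% of all genes were called. The call needs every library, and Mycl was seen in only 2 of 86 such cells in NEJ638 and 4 of 36 in NEJ687. The NEJ634 pool had an estimated ambient share of 54.3%. Without NEJ654 or without NEJ677 the mean of Mycl over the pools fell under 5 CPM and it was not tested, as under the 99th percentile rule alone (4.86 CPM) and with each library clustered on its own (4.75 CPM), and with only cells over 1000 UMIs and at most 10% mitochondrial UMIs it missed the limit.

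Conventional dendritic cells held Mycl at 26.5, 40.4, 41.8, 30.3 and 35.2 CPM in NEJ638, NEJ654, NEJ677, NEJ687 and NEJ723, and at 3.79 CPM in NEJ634. The NEJ634 pool decided the call: with it the difference there was 0.81 on the log2 scale and the class was not called, and without it Mycl was called higher. The ambient share of that pool was estimated at 44.1%, against 2.26 to 7.83% in the other 5. With the ambient share subtracted Mycl was called higher in all 6 libraries, as it was at Leiden resolution 2, with a pseudocount of 1 and under a 1.5-fold limit. In the remaining 13 classes Mycl lay between 0 and 7.66 CPM.

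**Figure D3:**
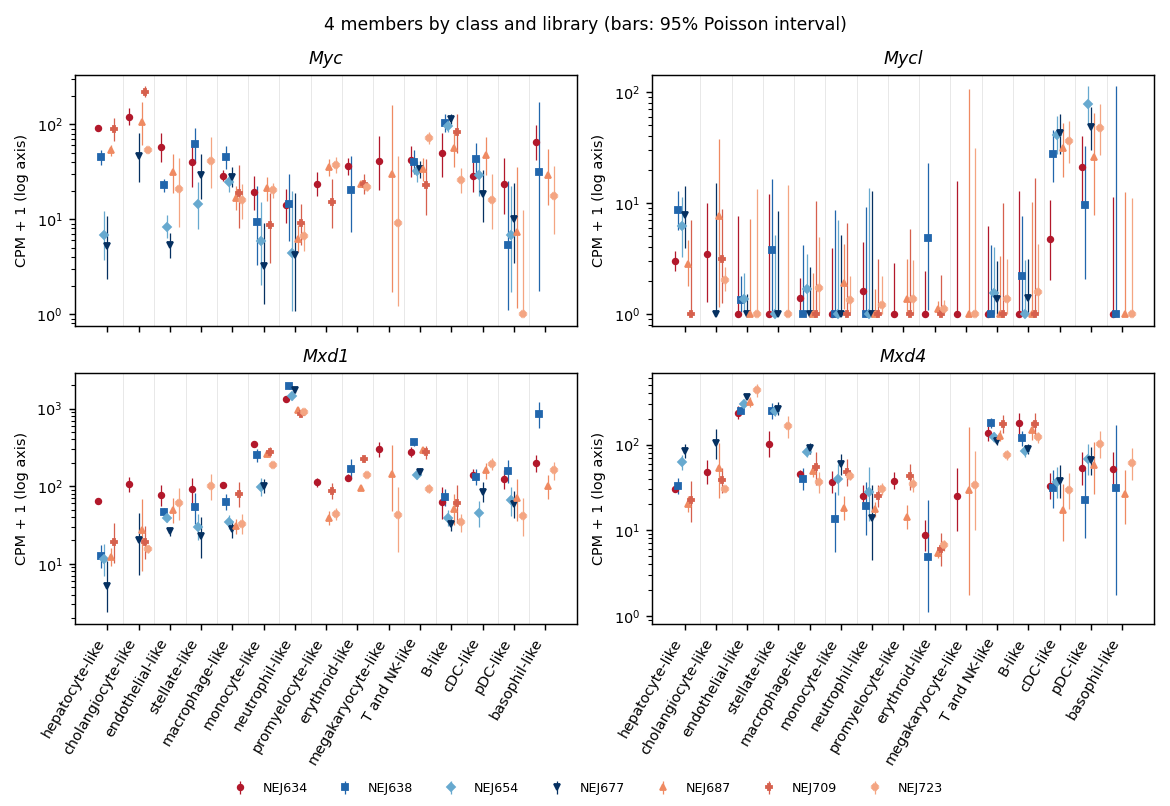
Myc, Mycl, Mxd1 and Mxd4 by class (CPM + 1, log axis), 1 point per library with its exact 95% Poisson interval. Every neutrophil-like pool lies at 840 CPM or more for Mxd1 and every endothelial-like pool at 236 or more for Mxd4.

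Max was present in all 85 pools. By the median over libraries it was highest in megakaryocyte-like cells. There it ran from 24.6 to 222.0 CPM over 3 libraries and was not called. That median is the NEJ687 pool, with Max seen in 4 of 26 cells. In NEJ723 it was seen in 2 of 83 cells, in a pool with an estimated ambient share of 48.9%. In neutrophil-like cells it was 75.4 to 105.1 CPM, above the median of other classes in all 7 libraries, with a median log2 difference of 0.95 (0.75 to 1.32), short of 2-fold. In hepatocyte-like cells it was 5.05 to 29.7 CPM, with a median log2 difference of -1.21 (-2.37 to -0.65), below in all 6 libraries. Under a 1.5-fold limit Max was called higher in neutrophil-like and lower in hepatocyte-like cells.

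Mxd1, the repressor tied to terminal differentiation of blood cells, had the largest difference of the members called in a class. In neutrophil-like cells it was 1314 CPM in NEJ634, 1941 in NEJ638, 1437 in NEJ654, 1729 in NEJ677, 973 in NEJ687, 840 in NEJ709 and 909 in NEJ723. Only 1 of the 78 pools of other classes reached the lowest of these, the basophil-like pool of NEJ638 (852 CPM, 22 cells). Mxd1 was called higher, with a median log2 difference of 3.81 (3.27 to 5.66), a 14-fold difference, where 4.42% of all genes were called. It kept that call under each alternative and with each library left out. Neutrophil-like cells held 34.1% of all Mxd1 UMIs and were 4.67% of cells. By library they held from 16.0% (NEJ709) to 54.6% (NEJ687) of the Mxd1 UMIs and were 1.45 to 16.4% of cells.

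After the neutrophil class, the highest medians of Mxd1 were in T/NK-like (275 CPM) and monocyte-like cells (250 CPM). It was 97.7 to 353 CPM in monocyte-like and 91.8 to 366 CPM in T/NK-like cells, above the median of other classes in all 7 libraries for both (median log2 1.57 and 1.68) but not 2-fold in each. It was called higher in monocyte-like cells without NEJ638, with only cells over 1000 UMIs and at most 10% mitochondrial UMIs, with haemoglobin and mitochondrial UMIs left out, with the ambient share subtracted and under a 1.5-fold limit, and in T/NK-like cells without NEJ723. Mxi1, a repressor close to Mxd1 in sequence, was highest by median in neutrophil-like cells (72.1 to 121.0 CPM), with a median log2 difference of 1.12 (0.93 to 1.70), and was not called at 2-fold. By class median it was lowest in plasmacytoid dendritic cells, at 4.35 to 9.37 CPM against 40.1 in NEJ634, whose pool had an ambient share of 54.3%. Single pools of other classes were lower, with 0 UMIs in the basophil-like pool of NEJ638 (22 cells) and the megakaryocyte-like pool of NEJ687 (26 cells).

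Neutrophil-like cells fell into cluster 32, led by granule genes made during marrow development such as Camp and Ngp, and the more mature cluster 27. In cluster 27 Mxd1 was 2237, 2370, 1722, 1709 and 1498 CPM in NEJ634, NEJ638, NEJ687, NEJ709 and NEJ723. In cluster 32 of the same libraries it was 653, 628, 510, 513 and 443 CPM. The groups of pools did not overlap, the median log2 difference was 1.75 (1.73 to 1.91), and 5.04% of all genes were called higher in this comparison. This pair, too, was chosen with its values seen. Mxd3 went the other way in all 5 libraries (median log2 difference -0.76, -0.94 to -0.51) and was not called.

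Mxd4 was highest by median in the classes named endothelial-like and stellate-like. In endothelial-like cells it was 236 CPM in NEJ634, 247 in NEJ638, 297 in NEJ654, 356 in NEJ677, 314 in NEJ687 and 428 in NEJ723. Most of the NEJ638 pool was cluster 35, which had no endothelial marker among its top 10 genes. Mxd4 was called higher, with a median log2 difference of 2.61 (2.0 to 3.43), a 6.11-fold difference, where 11.1% of all genes were called. The call was kept without NEJ638. In stellate-like cells it was 102 CPM in NEJ634, 247 in NEJ638, 248 in NEJ654, 261 in NEJ677 and 162 in NEJ723, called higher with a median log2 difference of 1.80 (1.22 to 2.83), where 6.69% of all genes were called. The stellate call was lost with doublets kept, with cells weighted equally and with each library clustered on its own.

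Endothelial-like cells held 66.7, 51.3 and 56.7% of the Mxd4 UMIs of NEJ638, NEJ654 and NEJ677 and 2.62 to 17.5% of those of the other 4 libraries. With these cells left out, a sum added after seeing the data, Mxd4 was 59.7, 95.3 and 91.6 CPM in NEJ638, NEJ654 and NEJ677 and 16.1 to 40.6 CPM in the other 4. No share of all genes that fall apart in this way was computed, and the part of the cell makeup in the sums was not tested. Within endothelial-like cells the order of libraries was a different one, with NEJ723 highest and NEJ634 lowest. The class named B-like, mostly cluster 30 in NEJ638, NEJ654 and NEJ677, and T/NK-like cells held Mxd4 at 82.9 to 177 and 74.8 to 179 CPM, above the median of other classes in all 7 libraries and not 2-fold in each.

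Erythroid-like cells had the lowest Mxd4, at 7.78 CPM in NEJ634, 3.90 in NEJ638, 4.43 in NEJ687, 5.02 in NEJ709 and 5.65 in NEJ723. It was called lower, with a median log2 difference of -2.05 (-2.30 to -1.83). Mnt, another MAX-binding repressor, was also called lower there, at 5.06, 0, 4.47, 4.02 and 4.96 CPM in the same order (median log2 -1.22, -2.38 to -1.02). In this class 10.4% of all genes were called lower. Globin transcripts take a large part of these cells' UMIs, and with haemoglobin and mitochondrial UMIs left out of the total Mxd4 was still called lower and Mnt was not (-1.07). The Mnt call was also lost under the percentile rule alone (-1.25) and with the mean over cells (-1.57). Mnt was highest by median in the class named B-like (clusters 29 and 30), at 28.9 to 64.5 CPM, above the median of other classes in all 7 libraries, and was called there only under a 1.5-fold limit.

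Along the erythroid series, clusters 14, 16 and 15 had medians of 16.0, 20.4 and 64.8% haemoglobin UMIs. Myc was 34.9, 20.1 and 12.3 CPM by the median over libraries in clusters 14, 16 and 15, Mxd3 5.89, 31.1 and 0, and Mxd1 98.2, 95.9 and 303. Between clusters 15 and 14 only Mlx was called among the members: it was 31.1, 11.6, 23.4, 18.3 and 16.7 CPM in cluster 14 and 5.57, 0, 2.75, 3.07 and 2.92 in cluster 15 of NEJ634, NEJ638, NEJ687, NEJ709 and NEJ723. The median log2 difference was -1.73 (-1.87 to -1.45), in a comparison where 22.4% of all genes were called lower, and NEJ638 held 1 and 0 Mlx UMIs. With haemoglobin and mitochondrial UMIs left out of the total, an alternative added after seeing the data, Mlx was no longer called (-1.05, -2.42 to -0.88), where 11.4% of all genes were called lower. Mxi1 was then called higher in cluster 15 (2.21, 1.54 to 2.41), where 2.98% of all genes were called higher. These clusters were also chosen with their values seen. Against other classes Mlx was called in none, with its highest median, 41.9 CPM, in plasmacytoid dendritic cells.

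Mxd3, the MXD protein known from S phase and mitosis, was low in class sums, with the highest median in erythroid-like cells (8.56, 7.79, 17.8, 21.4 and 26.8 CPM in NEJ634, NEJ638, NEJ687, NEJ709 and NEJ723). To read it against the cell cycle, cells of a class and library with at least 2 UMIs of 12 G2/M genes after thinning to 1000 UMIs were set against cells with 0. Mxd3 was called higher in the G2/M cells of 3 classes. In erythroid-like cells it was 11.6 against 0 CPM in NEJ634 (22 and 0 UMIs), 23.9 against 1.13 in NEJ687, 33.1 against 1.21 in NEJ709 and 41.9 against 1.44 in NEJ723. The median log2 difference was 2.43 (1.73 to 2.86), where 6.24% of all genes were called higher.

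In T/NK-like cells Mxd3 was 24.8 against 2.25 CPM in NEJ634, 65.8 against 0.661 in NEJ654, 87.0 against 0 in NEJ677, 12.8 against 0.949 in NEJ687 and 25.8 against 0.968 in NEJ723. The median log2 difference was 2.37 (1.58 to 4.2), where 2.0% of all genes were called higher, and the G2/M pools held 4 to 30 Mxd3 UMIs. In neutrophil-like cells Mxd3 was 8.78 against 1.07 CPM in NEJ634, 11.3 against 0.283 in NEJ687, 11.2 against 2.01 in NEJ709 and 24.2 against 0.330 in NEJ723, a median log2 difference of 1.42 (1.18 to 2.46), where 4.90% of all genes were called higher. These levels rest on 4 to 25 UMIs in the G2/M cells and 1 or 2 in the others. Without NEJ634 the mean of Mxd3 over the pools was 4.93 CPM, under the limit of 5, and none of the 3 calls was tested. The erythroid call was kept at Leiden resolution 2, under the percentile rule alone, with each library clustered on its own and with at least 50 cells per pool, while the neutrophil call was absent in these 4 and the T/NK call at resolution 2 and with at least 50 cells.

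In hepatocyte-like cells Mxd3 was 5.32 against 2.37 CPM in NEJ634, 15.7 against 3.91 in NEJ638, 34.9 against 2.10 in NEJ654 and 15.4 against 2.40 in NEJ687. All 4 libraries went the same way, with a median log2 difference of 1.34 (0.48 to 2.49), and it was not called, since NEJ634 fell short of 2-fold, where 0.287% of all genes were called. Without NEJ634 Mxd3 was not tested in this class either. In macrophage-like cells the median was 1.03 (0.53 to 1.74) over 5 libraries, not called, where 1.07% were called. In promyelocyte-like cells it was 0.35. The depth of the G2/M cells differed from that of the others in some pools: neutrophil-like G2/M cells had medians of 7401 to 16920 UMIs against 2814 to 5514, and its part in the levels was not tested.

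Myc was called in no class by G2/M UMIs. In hepatocyte-like cells it was 91.3 against 88.5 CPM in NEJ634, 58.8 against 48.3 in NEJ638, 6.99 against 6.31 in NEJ654 and 45.1 against 53.7 in NEJ687, and each pair of intervals overlapped. Mxd1 was called lower in the G2/M cells of the neutrophil class, at 452 against 1726 CPM in NEJ634, 351 against 1178 in NEJ687, 289 against 1187 in NEJ709 and 274 against 1126 in NEJ723. The median log2 difference was -1.97 (-2.02 to -1.73), where 4.37% of all genes were called lower. The call was absent under the 99th percentile rule alone and with at least 50 cells per pool. The neutrophil class holds clusters 27 and 32, and Mxd1 was higher in cluster 27 (median log2 1.75) and Mxd3 lower (-0.76). How the G2/M cells fall between these clusters, and its part in the G2/M differences of Mxd1 and Mxd3, was not tested. In erythroid-like cells Mxd1 was also lower in all 4 libraries (-1.13, -1.43 to -0.94), short of 2-fold in NEJ634. There it was called without NEJ634, at Leiden resolution 2, with haemoglobin and mitochondrial UMIs left out, with at least 50 cells per pool and under a 1.5-fold limit.

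**Figure D4:**
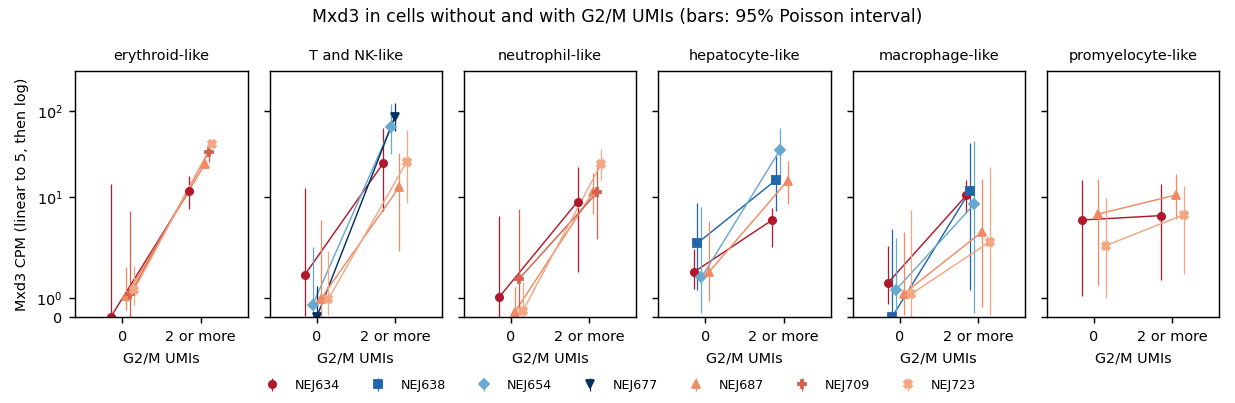
Mxd3 level (CPM, axis linear to 5 and logarithmic above, bars for exact 95% Poisson intervals) in cells with at least 2 G2/M UMIs and in cells with 0, by class, with lines joining the values of the same library. Erythroid-like cells run from 0 to 1.44 CPM without G2/M UMIs and from 11.6 to 41.9 with them.

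The UMIs of Myc, Mycn and Mycl were divided by those of Mxd1, Mxd3, Mxd4, Mxi1 and Mnt in each pool, to set classes against each other. UMI counts are not amounts of protein, and the ratio was not read as activity. By the median over libraries it was highest in hepatocyte-like (0.678) and cholangiocyte-like cells (0.566), followed by conventional dendritic (0.301) and B-like cells (0.253), and lowest in monocyte-like (0.0249) and neutrophil-like cells (0.00560). In hepatocyte-like cells it was 0.637 in NEJ634, 0.797 in NEJ638, 1.04 in NEJ709, 0.720 in NEJ687, 0.121 in NEJ654 and 0.102 in NEJ677. The intervals of NEJ654 and NEJ677 lay below those of the other 4 libraries. With each library clustered on its own the hepatocyte-like median was 0.233, below the 0.302 of plasmacytoid and the 0.251 of conventional dendritic cells, so the order of classes changed. In cholangiocyte-like cells it ran from 0.250 in NEJ677 to 2.14 in NEJ709, and in neutrophil-like cells from 0.00169 to 0.00912.

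**Figure D5:**
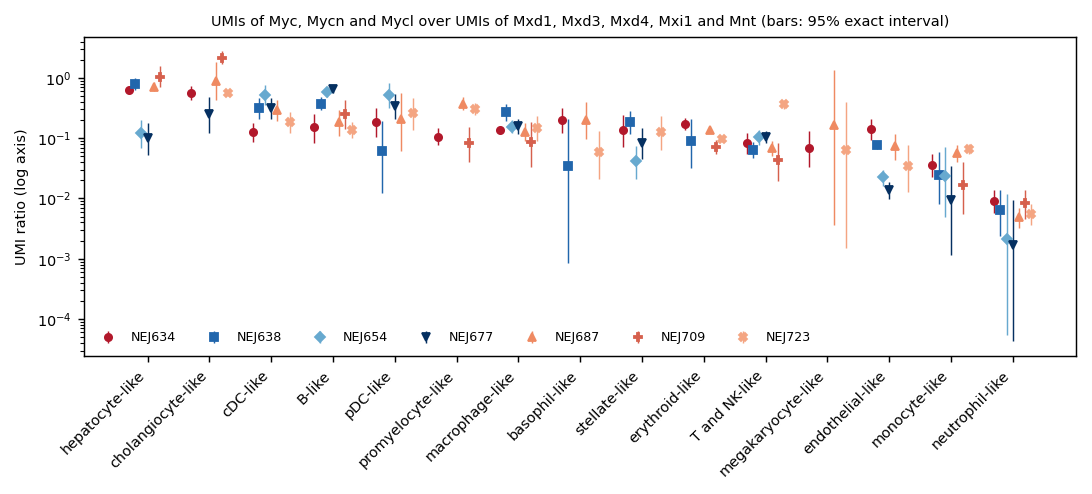
Ratio of Myc, Mycn and Mycl UMIs to Mxd1, Mxd3, Mxd4, Mxi1 and Mnt UMIs (log axis) in each class, 1 point per library. Hepatocyte-like pools span 0.102 to 1.04 and every neutrophil-like pool lies at 0.00912 or less.

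The wider network was read from a list of 27 cofactors (partners of MLX, corepressors of MXD proteins, coactivators and regulators of MYC stability) and of 20 known MYC targets, 27 and 19 of which were tested. In hepatocyte-like cells 1 cofactor was called higher, Mlxipl (median log2 3.44), the glucose-sensing partner of MLX, and none lower, while the lowest was the kinase gene Pim1 (-2.88). Of the targets, Shmt2 (2.45) and Hspd1, both encoding mitochondrial proteins, were called higher and the cyclin gene Ccnd2 (-2.53) lower, with a list median of 0.18 against -0.06 for all genes. The 1 of 27 cofactors and the 2 of 19 targets higher, and the 1 of 19 lower, stand beside 7.63% of all genes called higher and 4.26% lower in this class. In cholangiocyte-like cells Mlxipl was again the only cofactor called higher (2.35) and no target was called higher, where 5.14% of all genes were, with a list median of 0.82 against 0.16.

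In neutrophil-like cells 9 targets were called lower and none higher: Npm1, Fbl, Nop56, Nop58, Gnl3 and Nolc1, which serve the nucleolus, Odc1 and Srm, which make polyamines, and Nme1. The list median was -2.0 against -0.41 for all genes, with Fbl lowest at -2.69 and Ldha highest at 0.18. Of the cofactors, Hdac2, Ruvbl1 and Huwe1 were called lower and none higher. These 9 of 19 targets and 3 of 27 cofactors stand beside 5.94% of all genes called lower and 4.42% higher. In erythroid-like cells the targets Odc1 and Tfrc (3.17), the transferrin receptor of iron uptake, were called higher and none lower, in a class where 4.79% of all genes were called higher. The cofactor Aurka, a mitotic kinase, was called higher there and Mlxip lower. In the G2/M contrast Aurka was called higher in hepatocyte-like, macrophage-like, neutrophil-like and erythroid-like cells. The shares of all genes called higher there were 0.287, 1.07, 4.90 and 6.24%. No target was called higher in any class with this contrast, where 0.148 to 6.24% of all genes were.

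In the remaining classes few genes of both lists were called. In endothelial-like cells the target Cdk4 was called higher and the cofactor Pim1 lower (-2.16), where 11.1% of all genes were called higher and 1.69% lower. In megakaryocyte-like cells, with 3 libraries, Odc1 was called higher (1.97) and the cofactors Mlxip, Ruvbl2 and Skp2 lower, where 2.02% of all genes were called higher and 5.33% lower. Ccnd2 was called higher in T/NK-like cells (2.45), where 3.20% of all genes were called higher. The chromatin gene Bptf was called higher in B-like cells, where 3.11% were. Pim1 was called higher in conventional dendritic (1.42) and basophil-like cells, where 2.30 and 1.79% were. None of either list was called in stellate-like, macrophage-like, monocyte-like, promyelocyte-like and plasmacytoid dendritic cells. In the G2/M contrast Hdac2 was also called higher and Pim1 (-2.21) and Ccnd2 (-1.52) lower in neutrophil-like cells. All genes called there were 4.90% higher and 4.37% lower.

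Over the 85 pools, the genes whose log2(CPM + 5) was most like that of Myc, among 6186 genes with a mean of at least 20 CPM, were Rpl22l1 (Pearson r 0.66), Rbbp7 (0.65), Zc3h15 (0.65), Ncl (0.65) and Noc2l (0.64). Of these, Ncl, a nucleolar protein gene, is on the target list. For Mxd3 they were Cenpf (0.72), Prc1 (0.69), Tpx2 (0.68), Ncapd2 (0.68) and Nusap1 (0.67), all known from mitosis, of which Cenpf and Tpx2 are among the 12 G2/M genes. For Mycn the highest value was 0.45, for Cr1l. Pools of a library share its depth and ambient RNA, so these values describe likeness and carry no p.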

How the data were processed

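The matrices are unfiltered UMI counts per gene and barcode, made by the authors with Cell Ranger (version 6.0 per the labels, 4 per the file headers) from Chromium droplet libraries, with reads in introns included per the study's methods; the genome build is not given in the sources used here. From these counts, cells were called again in each library: a barcode passed on size alone when its UMIs exceeded a limit (the 99th percentile over the largest 3000, divided by 10), or, from 500 UMIs upward, when its profile differed from the ambient profile (barcodes ranked 45000 to 90000) at an adjusted p of 0.01, up to 20000 tested, a limit reached in 3 libraries. Cells over 20% mitochondrial UMIs and those with the highest doublet scores (0.8% per 1000 cells) were removed. Clusters (scanpy 1.11.5, Leiden resolution 1, 2000 variable genes, 40 components) were named from marker lists. CPM were computed from summed UMIs with exact Poisson intervals (scipy 1.17.1). Members and lists were chosen with earlier results of these data known. The named genes were the 10 members, every cofactor and target as counts with the highest and the lowest of a list in a contrast described (other called genes of these lists were named after their values were seen, and 1 is not reported here), and the 5 genes most like Myc, Mycn and Mxd3. The labels give no groups, so no test between libraries was made. The fold rule was tested on simulated counts. Intervals and limits cover counting error only. Alternatives to calling, filters, doublets, clustering, scaling, ambient RNA and thresholds, and leaving out each library, were run; sums over named classes only and without endothelial-like cells, and pairs of clusters without haemoglobin and mitochondrial UMIs, were added after seeing the data. Genome sequence was not used; promoters came from RefSeq and spans from GENCODE.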

Additional observations from a re-analysis of the deposited data

How the results depend on the processing

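Depth and cell number limit the low genes: Mycn, Mycl and Mxd3 rest on few UMIs per pool, as does Myc in some neutrophil-like pools. The calls of members higher in a class numbered 5; they were 2 with each library clustered on its own, 10 under a 1.5-fold limit, and 4 to 6 with each library left out. Members lower in a class numbered 3, then 8 under a 1.5-fold limit, and 3 to 6 with each library left out (6 without NEJ634). Members higher in cells with G2/M UMIs numbered 3, then 5 with doublets kept, 1 at Leiden resolution 2, 0 with the mean over cells and 0 with a mean of at least 20 CPM (Mxd3 not tested in either), 1 with at least 50 cells per pool, and 0 to 3 with each library left out (0 without NEJ634). Members lower in such cells numbered 1, then 0 under the 99th percentile rule alone, 2 at resolution 2, 2 with haemoglobin and mitochondrial UMIs left out, 4 under a 1.5-fold limit, and 1 to 2 with each library left out (2 without NEJ634). For all of these counts the share of all genes called under the same alternative is not given here. Whether the calls of members changed more than those of other genes was thus not tested. The ratio of Myc, Mycn and Mycl to repressor UMIs moved by more than its spread in hepatocyte-like cells (0.233 with libraries clustered alone), B-like cells (0.613 under the percentile rule), erythroid-like cells (0.164 under the percentile rule, 0.0382 with libraries clustered alone) and megakaryocyte-like cells (0.447 with doublets kept). The cause of these changes was not tested, except where a mean fell under the limit. Of the called folds recomputed, 216 stayed past the limit and 18 did not, and no direction reversed. Of the levels in a class 1225 moved by less than their spread and 85 by more. Of the levels over all cells of a library, 297 stayed within their counting interval and 193 did not, among them 57 with haemoglobin and mitochondrial UMIs left out of the total, 47 with the ambient share subtracted and 44 with the mean over cells, of 70 each. No paired analysis was possible because the labels give no groups and no shared replicate numbers.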

Other observations

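Library sums of Mxd4, Mycl and Mxd1 are set side by side here as values; how many of all genes differ as much between these libraries was not computed. Mxd4 was 121, 146 and 158 CPM in NEJ638, NEJ654 and NEJ677 and 42.4, 19.3, 27.2 and 25.2 CPM in NEJ634, NEJ687, NEJ709 and NEJ723. Mycl was 2.33, 3.26 and 2.45 CPM in NEJ638, NEJ654 and NEJ677 and 1.24, 0.580, 0.830 and 0.859 CPM in the other 4, but in all 7 libraries the interval of the cells overlapped that of the ambient profile, which held Mycl at 0.984, 2.96 and 2.43 CPM in NEJ638, NEJ654 and NEJ677. Mxd1 was 118, 62.3 and 58.5 CPM in the first 3 and 154, 172, 181 and 132 CPM in the other 4. Over cells of named classes only, a sum added after seeing the data, Mxd1 was 144 CPM in NEJ638 and 142 in NEJ634, and under the 99th percentile rule alone it was 77.8 CPM in NEJ638 and 53.5 in NEJ723. With the ambient share subtracted Mycl was 3.69 CPM in NEJ709, above NEJ638, NEJ654 and NEJ677, and Mxd1 was 0 in NEJ634. The labels put these libraries in no group, and no test was made.

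Mxd3 was high in the few cells of cluster 35 outside NEJ638: 242 CPM in NEJ654 (23 UMIs in 26 cells) and 174 CPM in NEJ677 (13 UMIs in 22 cells), against 16.5 CPM in the 2048 cells of NEJ638. Mycn in that cluster was 6.65 CPM in NEJ638, from 37 UMIs, and rested on 1 and 2 UMIs in NEJ654 and NEJ677.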
